A study of Rattus norvegicus with 42 samples.

Results

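The common effect of damaging light on the rat retina was measured in 31 retinal RNA libraries, 17 from light-exposed and 14 from unexposed animals, out of 42 labelled samples. All libraries with counts that matched a sample were used, whatever had been injected into the eye, and the effect of light was estimated in a model that also held the injection state as a second factor. The injection state had 3 levels, which were no injection, vehicle and nanoceria (particles of cerium oxide, an antioxidant material). The unexposed libraries were 5 control libraries from untreated rats, 5 from rats given vehicle into the vitreous and 4 from rats given 1 mM nanoceria there. The exposed libraries were 7 of light damage without injection, 5 of vehicle plus light and 5 of nanoceria plus light, with exposure to 15000 lux for 24 h. All animals were adult rats kept on a daily light and dark cycle. Strain, sex, the delay between injection, light and dissection, and whether 1 or both eyes were taken are not given in the labels.

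Photoreceptors turn light into an electrical signal. In rods, the light-sensitive pigment activates the G protein transducin, which switches on a phosphodiesterase and closes cation channels in the outer segment. Excess light damages this machinery and kills photoreceptors, rods above all, and the Müller glia that span the retina answer with cytokine signalling, intermediate filaments and growth factors. In a bulk sample of the whole retina, fewer cells of a type and less RNA per cell cannot be told apart, which holds for every level below.

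Total counts ranged from 73369026 to 121336562 in the unexposed libraries (median 98201221) and from 25158407 to 182162368 in the exposed libraries (median 118042108). Lens genes, from tissue that adjoins the retina in dissection, took 0.0687% to 3.48% of the counts without light and 0.0284% to 1.04% with light. None of 20 tested lens genes was called, and their median log2 fold change was -0.82, with single-pair medians of 0.02, -2.32 and -0.07. Mip, a lens water channel, had a log2 fold change of -1.31 (adjusted p = 0.0987) and was lower with DESeq2 (adjusted p = 0.0366), without the nanoceria groups (-1.88) and without nanoceria plus light 4 (-1.79). In the vehicle pair 3 lens genes were lower, and with library size alone 1 was higher. With a term for lens genes in the model 3643 genes were called higher and 3083 lower, near the counts given below. The summed level of 14 pigment epithelium markers was 4192 to 6978 CPM (counts scaled to the size of the library) without light and 3448 to 6084 CPM with light, so this neighbouring tissue was present in both sets. Libraries vehicle 4 and 7, and light damage 4 and 7, were more alike than other pairs, with 2.66 and 4.33 times the variance of counting against 15.4 for the next pair. They exceeded sampling noise and were kept as separate samples. Light damage 1 had the fewest counts, and nanoceria plus light 2 and control 6 lay apart from the rest in overall profile.

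Light changed the level of many genes, and 920 of those that rose and 670 of those that fell were also called in all 3 single pairs. Of 18094 genes tested, 3660 (20.2%) rose and 3095 (17.1%) fell with light, 6755 (37.3%) in either direction, at an adjusted p under 0.05 in edgeR's quasi-likelihood test with Benjamini-Hochberg adjustment. For 6540 of the 6755 genes the 3 single-pair estimates had 1 sign. Selection by the pooled estimate favours such agreement, so this count is a description. In 332 genes (1.83%) every exposed library was above every unexposed library, and in 225 genes (1.24%) every exposed library was below. The median log2 fold change over all genes was 0.02. Scaling by library size alone raised that median to 0.09 and changed the split, with 5010 genes higher and 1860 lower, or 72.9% of calls higher against 54.2% with the main scaling (TMM, trimmed mean of M values). No gene was called in opposite directions under any of the alternatives. For lists of small effects, the count under another scaling is given where it moves by over 1.5 times.

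Most of the called effects were small. The median absolute log2 fold change of a called gene was 0.32. A test against a change of 1.5-fold (glmTreat of edgeR) called 446 genes higher (2.46%) and 234 lower (1.29%). An absolute log2 fold change under 0.25 was found in 2531 called genes, 0.25 to 0.5 in 2098, 0.5 to 1 in 1413, 1 to 2 in 550 and at least 2 in 163. Of the latter, 136 were higher and 27 lower with light. For 8100 genes (44.8%) the 95% interval of the effect lay within 0.32 of 0 on the log2 scale, which is called bounded below. This bound held for 1988 of the called genes and for 6112 that were not called, which leaves 5227 genes with neither a call nor a bound.

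Pooling over injection states called genes that no single comparison of 1 exposed with 1 unexposed group called. The median standard error (SE) of the log2 fold change was 0.083 in the additive model, against 0.135 for light damage against control, 0.145 for vehicle plus light against vehicle and 0.154 for nanoceria plus light against nanoceria. Among the genes that rose, 1108 (6.12% of genes tested) were called in no single pair, 975 in 1 pair, 657 in 2 pairs and 920 in 3 pairs. Among those that fell, the numbers were 971 (5.37%), 954, 500 and 670. All fits used the same libraries, so these counts are a description. The 2079 genes called in no single pair had a median absolute log2 fold change of 0.21. In 2061 of the 2079 the 3 single-pair estimates had 1 sign, which selection by the pooled estimate favours. Genes called in no single pair made up 49.3% of called genes with an absolute log2 fold change under 0.25 and 3.68% of those with at least 2. With limma-voom in place of edgeR, 1193 genes were called in no single pair. A further 604 genes were called in a single pair and not in the additive model.

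**Figure D1:**
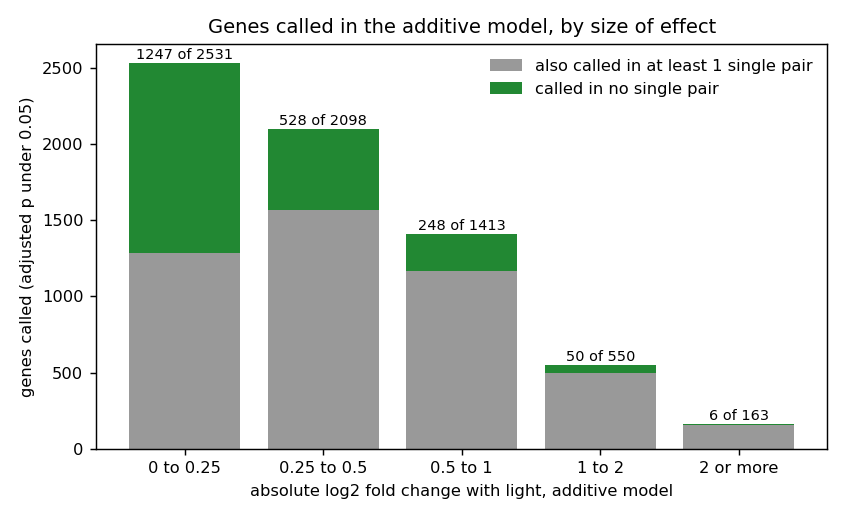
Number of genes called in the additive model (vertical axis) by absolute log2 fold change with light (horizontal axis). Green marks genes called in no single pair, which made up 1247 of the 2531 called genes with the smallest effects and 6 of the 163 with the largest.

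Gene groups were compared with the shares of all genes tested, which were 20.2% higher, 17.1% lower and 44.8% bounded. Called in no single pair were 6.12% of genes tested as higher and 5.37% as lower. A list count near these shares is no trait of the list. In 51 gene lists, the share of members that rose was highest for ribosome biogenesis, reactive glia, aminoacyl-tRNA synthetases and the interferon response, and the share that fell was highest for photoreceptor transcription factors and rod phototransduction. The lists were chosen with earlier results of these data known, so their counts describe the light effect and do not test it independently.

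**Figure D2:**
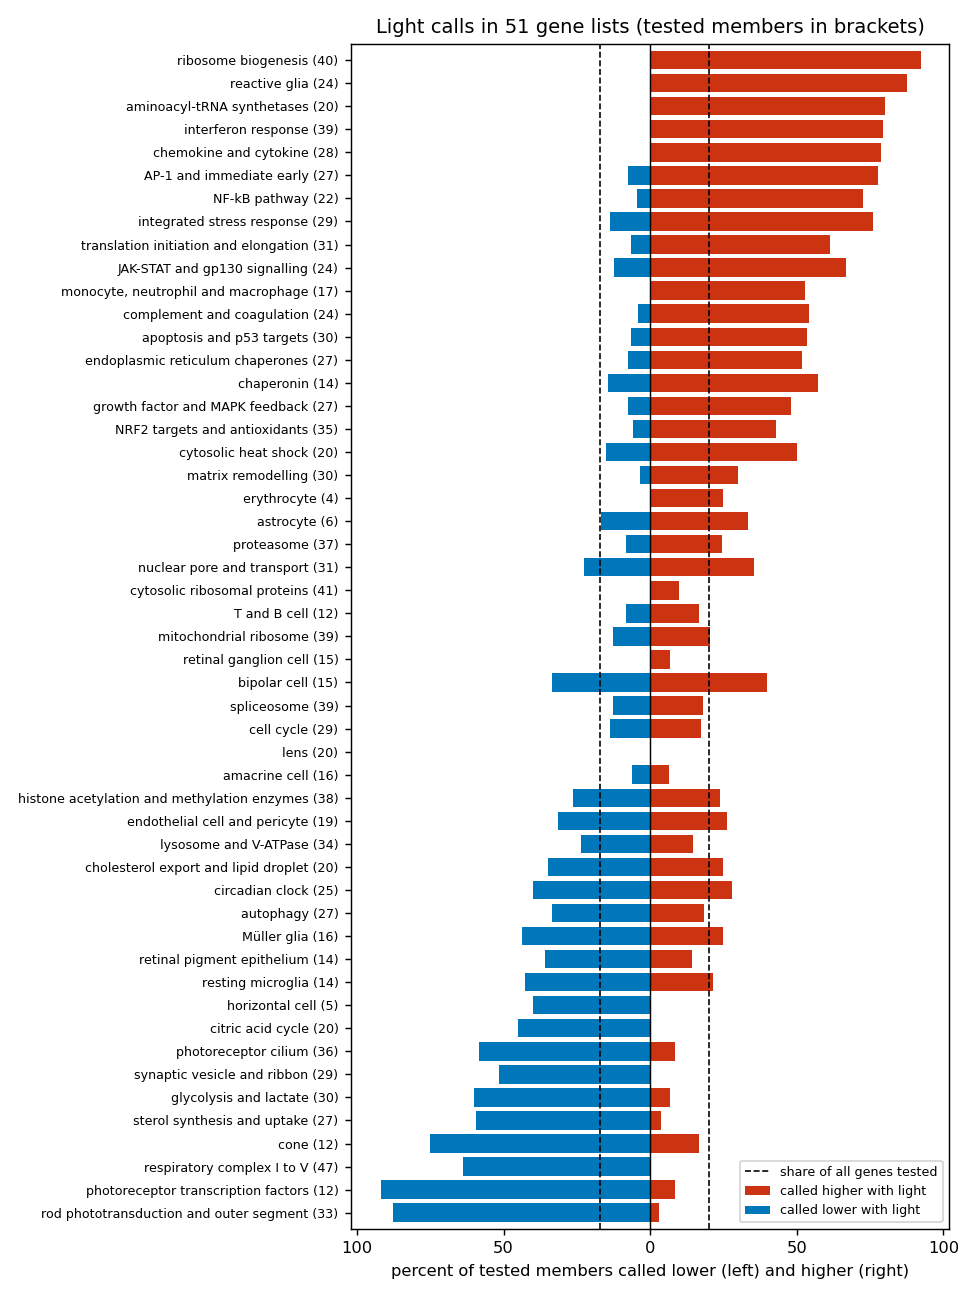
Percent of the tested members of 51 gene lists called higher (red, to the right) or lower (blue, to the left) with light in the additive model, with the number of tested members in brackets. Dashed lines mark the shares over all genes tested, 20.2% higher and 17.1% lower.

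Rod genes fell together. Of 33 tested genes of rod phototransduction and the outer segment, 29 fell and 1 rose, with a median log2 fold change of -1.06. In 16 of the 33 every exposed library was below every unexposed library. Their summed level, over 34 genes with counts, was 43340 to 79744 CPM without light and 7901 to 32078 CPM with light. Gnat1 (ENSRNOG00000017589), the alpha subunit of rod transducin, had the largest fall of any named gene. Its level was 7544 to 15689 CPM without light (median 10980.5) and 303 to 2363 CPM with light (median 1038), so the groups did not overlap. The log2 fold change was -3.21 ± 0.24 (SE), a 9.22-fold fall (adjusted p = 4.25e-12), and the single-pair estimates were -3.06 without injection, -3.55 with vehicle and -3.01 with nanoceria. Gnb1, the beta subunit of transducin, fell by 1.99 on the log2 scale and Rcvrn, which encodes the calcium sensor recoverin, fell by 2.35. Reep6, a membrane-shaping protein of rods, was at 800.5 to 1404 CPM without light and at 63.5 to 241 CPM with light, a log2 fold change of -2.93 ± 0.17. The 1 rod gene that rose was Rdh8, a retinol dehydrogenase of the outer segment named here after its values were seen, with a log2 fold change of 0.67 ± 0.13.

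**Figure D3:**
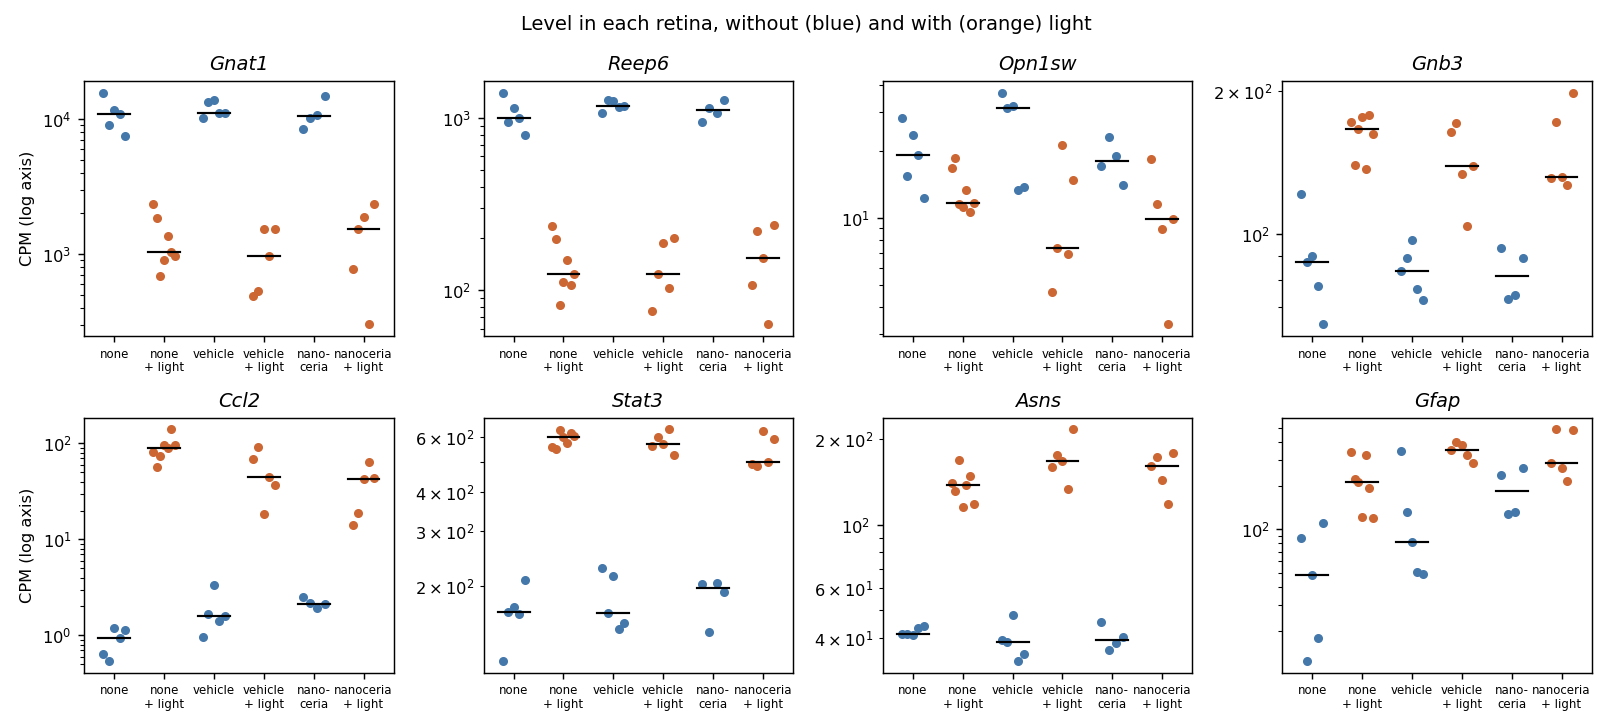
Level of 8 genes in each of 31 libraries in CPM on a log axis, by injection state without light (blue) and with light (orange). Black lines are group medians. Gnat1, Reep6, Ccl2, Stat3 and Asns do not overlap between exposed and unexposed libraries, while Opn1sw, Gnb3 and Gfap do.

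The promoter of Cngb1 is shown because it holds the core motif of CRX, a transcription factor of photoreceptors, and belongs to the rod gene with the smallest p-value that does. Cngb1 encodes a subunit of the rod cation channel. The sequence is the 300 bases around the gene start in RefSeq (GRCr8, chr19:9732396-9732695, plus strand), with the motif CTAATCC in capitals.
Cngb1: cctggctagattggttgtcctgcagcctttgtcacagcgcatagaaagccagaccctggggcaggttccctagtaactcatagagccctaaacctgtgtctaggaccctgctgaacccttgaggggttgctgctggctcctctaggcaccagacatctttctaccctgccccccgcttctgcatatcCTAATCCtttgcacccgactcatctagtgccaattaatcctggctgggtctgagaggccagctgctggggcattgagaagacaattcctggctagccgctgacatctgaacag
Cngb1 was at 452 to 856 CPM without light and at 69.5 to 314 CPM with light, with a log2 fold change of -1.68 ± 0.16 (adjusted p = 7.25e-10). All 17 exposed libraries were below the lowest unexposed one. The letters CTAATCC, on either strand, were found in 3 of 25 rod list promoters and in 2.16% of all 27457 promoters of this length.

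Rod and photoreceptor transcription factors fell with a single exception. Of 12 tested factors 11 fell and 1 rose, with a median log2 fold change of -0.66. Esrrb, a nuclear receptor with a role in rod survival, was at 51.1 to 135 CPM without light and at 6.40 to 32.2 CPM with light, a log2 fold change of -2.48 ± 0.24. Nr2e3, a nuclear receptor that represses cone genes in rods, fell by 1.77 on the log2 scale. Neurod1, a basic helix-loop-helix factor, rose in every injection state. It was at 109 to 178 CPM without light and at 193 to 333 CPM with light, so that every exposed library was higher. Its estimate on the log2 scale was 0.85 ± 0.06 (adjusted p = 7.49e-12).

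Cone genes fell less uniformly. Of 12 tested cone genes 9 fell and 2 rose, with a median log2 fold change of -0.62, and no cone gene separated the groups completely. Their summed level did not follow the falls, at 257 to 418 CPM without light (median 332) and 242 to 422 CPM with light (median 344). That sum includes Gnb3, which rose from a median of 85.2 CPM to 163 CPM, and a sum without Gnb3 was not computed. Opn1sw, the short-wavelength cone opsin, was at 12.4 to 36.8 CPM without light (median 19.2) and at 3.33 to 21.4 CPM with light (median 11.6). The groups overlapped, with 11 of 17 exposed libraries below the lowest unexposed library, and the log2 fold change was -0.85 ± 0.22 (adjusted p = 0.00217). The call was made in 1 single pair. Gnat2, the alpha subunit of cone transducin, fell by 0.70 on the log2 scale, and Pde6h, the inhibitory subunit of the cone phosphodiesterase, fell by 1.37. Gnb3, the beta subunit of cone transducin, moved the other way, from 64.5 to 122 CPM (median 85.2) up to 104 to 199 CPM (median 163), with 16 of 17 exposed libraries above the highest unexposed one. Its log2 fold change was 0.84 ± 0.08 (adjusted p = 1.97e-09). A bulk sample does not show which cells carried this rise, so it cannot be assigned to cones. Pde6c, the catalytic cone phosphodiesterase subunit, named here after its values were seen, was at 11.9 to 21.2 CPM without light and at 15.9 to 36.2 CPM with light, a log2 fold change of 0.52 ± 0.10.

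The lists of inner retinal neurons differed. Of 16 tested amacrine cell genes 1 rose and 1 fell, and the effect was bounded for 12 of them. Th, the dopamine-synthesis enzyme tyrosine hydroxylase, had a log2 fold change of 0.57 ± 0.18 (adjusted p = 0.0112), which was not called without the vehicle groups (adjusted p = 0.161). In the ganglion cell list 1 of 15 genes rose, none fell, and 9 were bounded. The gene that rose was Gap43, a growth cone protein, with a log2 fold change of 0.81 ± 0.14. Over all alternatives 0 to 3 genes of the ganglion cell list fell. With limma-voom the ganglion cell factors Isl2 (-0.29, adjusted p = 0.0355) and Pou4f2 (-0.28, adjusted p = 0.026) were called lower. Among 15 bipolar cell genes 6 rose and 5 fell, and 3 fell with library size alone, 3 without the uninjected groups and 2 without the vehicle groups. Lrit3, a protein of the synapse between photoreceptors and bipolar cells, fell by 1.08 on the log2 scale, and Cabp5, a calcium-binding protein, rose by 0.68. Of 5 horizontal cell genes 2 fell, namely Lhx1, a homeobox factor, with a log2 fold change of -0.78 ± 0.10, and Calb1, which encodes calbindin, with -0.36 ± 0.10. The call of Calb1 was lost without the vehicle groups (adjusted p = 0.123).

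Photoreceptor synapse and cilium genes followed the rod genes at smaller size. Of 29 tested genes of the synaptic vesicle and ribbon none rose and 15 fell, with a median log2 fold change of -0.30. Slc17a7, the vesicular glutamate transporter of photoreceptors and bipolar cells, was at 1034 to 1911 CPM without light and at 410 to 932 CPM with light, without overlap. It fell by 1.14 ± 0.10 on the log2 scale. Unc119, a lipid-binding carrier of transducin, fell by 1.253 and Cabp4, a calcium sensor of the photoreceptor terminal, by 1.16. Of 36 tested genes of the photoreceptor cilium 21 fell and 3 rose, and the genes that rose did so by much. Nphp4, a protein of the ciliary transition zone, was at 28.8 to 43.9 CPM without light and at 66.3 to 142 CPM with light, a log2 fold change of 1.58 ± 0.08 (adjusted p = 6.12e-16). Ift57, an intraflagellar transport protein, rose by 1.12 and Mak, a ciliary kinase, by 1.01.

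Reactive glia genes rose in every injection state. Of 24 tested genes 21 rose and none fell, with a median log2 fold change of 1.60, and in 12 of them every exposed library was above every unexposed one. The single pairs gave 19, 19 and 17 calls without injection, with vehicle and with nanoceria, and medians of 1.93, 1.56 and 1.46. Gfap, the intermediate filament of astrocytes and reactive Müller glia, was at 12.3 to 346 CPM without light (median 98.6) and at 120 to 489 CPM with light (median 288). The groups overlapped, since only 5 of 17 exposed libraries were above the highest unexposed one. The log2 fold change was 1.46 ± 0.30 (adjusted p = 0.000251). Unexposed Gfap had a median of 48.5 CPM in control, 81.3 CPM with vehicle and 185 CPM with nanoceria. Socs3, the feedback inhibitor of gp130 signalling, was at 1.56 to 4.58 CPM without light and at 25.5 to 61.7 CPM with light, a 17-fold rise (log2 fold change 4.08 ± 0.17). Timp1, an inhibitor of matrix proteases, rose by 2.16 on the log2 scale.

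Müller glia genes split. Of 16 tested genes 4 rose and 7 fell, with a median log2 fold change of -0.18, and without the vehicle groups 2 rose. Glul, the glutamine synthetase of Müller glia, was at 2120 to 3423 CPM without light and at 1172 to 1995 CPM with light, without overlap. The log2 fold change was -0.75 ± 0.08 (adjusted p = 3.92e-09). Cav1, which encodes caveolin, fell by 0.70 on the log2 scale, and Clu, the secreted chaperone clusterin, rose by 0.76.

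Cytokine genes had the largest rises. Of 28 tested chemokine and cytokine genes 22 rose and none fell, with a median log2 fold change of 2.10, and 10 separated the groups completely. Ccl2 (ENSRNOG00000007159), which attracts monocytes, was at 0.54 to 3.32 CPM without light (median 1.5) and at 14.1 to 140 CPM with light (median 64.2). Every exposed library was higher, and the log2 fold change of 5.23 ± 0.35 was a 37.6-fold rise (adjusted p = 8.45e-13). The single-pair estimates were 6.69 without injection, 4.88 with vehicle and 4.07 with nanoceria, and the test of their difference gave an adjusted p of 0.0757. Lif, the gp130 cytokine released by Müller glia in injury, was at 0.93 to 3.56 CPM without light and at 17.1 to 92.0 CPM with light, a log2 fold change of 4.36 ± 0.27. Ccl7, another monocyte chemokine, rose by 4.73 on the log2 scale and Cxcl10, an interferon-induced chemokine, by 4.48. Ptx3, a secreted pattern recognition protein outside the list, rose by 4.51. The summed level of 19 monocyte, neutrophil and macrophage markers had a median of 488 CPM without light and 738 CPM with light, and its part in these rises was not tested.

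Signalling below those cytokines rose as well. Of 24 tested genes of JAK-STAT and gp130 signalling 16 rose and 3 fell, with a median log2 fold change of 0.60. Stat3, the transcription factor that gp130 receptors activate, was at 115 to 228 CPM without light (median 168) and at 484 to 635 CPM with light (median 573). Every exposed library was higher, and the log2 fold change was 1.70 ± 0.08 (adjusted p = 2.3e-16). Il6st, the gp130 receptor itself, rose by 1.063 ± 0.05 on the log2 scale. Among growth factor and MAPK feedback genes 13 of 27 rose and 2 fell. Edn2, an endothelin made by stressed photoreceptors, was at 0.05 to 0.73 CPM without light and at 1.21 to 5.23 CPM with light, a log2 fold change of 3.38 ± 0.25. Fgf2, a survival factor for photoreceptors, went from 0.93 to 3.17 CPM up to 4.80 to 9.54 CPM, a log2 fold change of 2.03 ± 0.10. Both genes separated exposed from unexposed libraries completely.

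The NF-kB pathway, which drives inflammatory transcription and its own inhibitors, rose in 16 of 22 tested genes, with 1 fall and a median log2 fold change of 0.50. Icam1, a leukocyte adhesion molecule, rose by 2.19 ± 0.14 on the log2 scale, Relb, a subunit of the factor, by 1.66 and Nfkbie, an inhibitor, by 1.10. The promoter of Nfkb1, the gene of the p105 precursor and p50 subunit, is shown as that of the member with the smallest p-value that holds an NF-kB site, in capitals, in the same 300-base window (RefSeq, GRCr8, chr2:226805413-226805712, minus strand).
Nfkb1: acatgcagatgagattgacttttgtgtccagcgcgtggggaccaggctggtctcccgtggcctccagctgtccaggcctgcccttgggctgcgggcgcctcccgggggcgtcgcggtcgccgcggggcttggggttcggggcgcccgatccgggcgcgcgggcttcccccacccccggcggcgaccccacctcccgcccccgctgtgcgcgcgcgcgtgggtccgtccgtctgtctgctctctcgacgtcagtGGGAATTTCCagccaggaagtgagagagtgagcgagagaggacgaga
Nfkb1 was at 51.6 to 89.4 CPM without light (median 64.8) and at 77.4 to 122 CPM with light (median 109). The groups overlapped, with 14 of 17 exposed libraries above the highest unexposed one, and the log2 fold change was 0.69 ± 0.07 (adjusted p = 1e-09). The motif, on either strand, was in 7 of 18 promoters of the list and in 1.51% of all promoters.

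AP-1 and immediate early genes, whose products answer to stress and activity within hours, rose in 21 of 27 tested genes and fell in 2. The median log2 fold change was 0.88. Fosl1, a subunit of AP-1, was at 1.73 to 5.15 CPM without light and at 19.2 to 95 CPM with light, a 19.6-fold rise (log2 fold change 4.29 ± 0.22). Atf3, a stress-induced partner, was at 6.76 to 32.6 CPM without light and at 81.9 to 192 CPM with light, a log2 fold change of 3.23 ± 0.19. Junb, another AP-1 subunit, rose by 1.95 on the log2 scale. The AP-1 site TGACTCA was in 0 of 19 promoters of the list and in 4.53% of all promoters. The cyclic AMP response element TGACGTCA was in 3 of the 19 and in 1.91% of all promoters.

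The integrated stress response, in which phosphorylated eIF2 favours translation of ATF4 and so amino acid synthesis genes, rose in 22 of 29 tested genes and fell in 4. Asns, asparagine synthetase, was at 33.1 to 48.2 CPM without light (median 40.6) and at 116 to 217 CPM with light (median 149). Its estimate on the log2 scale was 1.92 ± 0.08 (adjusted p = 1.9e-17), with single-pair estimates of 1.71, 2.14 and 1.95. Gdf15, a secreted stress cytokine, was at 2.63 to 7.15 CPM without light and at 19.99 to 61.2 CPM with light, a log2 fold change of 3.09 ± 0.20. Sesn2, an inhibitor of the mTORC1 kinase, rose by 1.16. Aminoacyl-tRNA synthetases, which load amino acids on tRNA, rose in 16 of 20 tested genes with none lower and a median log2 fold change of 0.45. In 11 of the 20 every exposed library was above every unexposed one. Tars, the threonyl enzyme, was at 59.8 to 90.6 CPM without light and at 120 to 198 CPM with light (log2 fold change 1.11 ± 0.07), and Mars, the methionyl enzyme, rose by 0.87. The promoter of Chac1, a glutathione-degrading enzyme, is the list's first by p-value to hold the core of the amino acid response element, TGATGNAA on either strand, in capitals (RefSeq, GRCr8, chr3:126795881-126796180, plus strand).
Chac1: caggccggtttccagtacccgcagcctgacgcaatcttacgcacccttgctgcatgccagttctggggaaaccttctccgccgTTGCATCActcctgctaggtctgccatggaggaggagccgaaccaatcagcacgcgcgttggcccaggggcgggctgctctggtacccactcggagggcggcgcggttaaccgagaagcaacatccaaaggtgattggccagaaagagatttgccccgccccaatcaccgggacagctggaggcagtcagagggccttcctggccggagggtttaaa
Chac1 was at 9.47 to 19.6 CPM without light and at 19.96 to 32.2 CPM with light, and all 17 exposed libraries were higher. The log2 fold change was 0.98 ± 0.10 (adjusted p = 4.46e-09). The motif was in 6 of 27 promoters of the list and in 3.82% of all promoters.

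Chaperone genes rose by less. Of 27 tested endoplasmic reticulum chaperones and regulators 14 rose and 2 fell, at a median log2 fold change of 0.15, and the effect was bounded for 15. Xbp1, the transcription factor of the unfolded protein response, rose by 0.52 ± 0.07 on the log2 scale, Dnajb9, a cochaperone, by 0.39 and Ern1, the kinase that splices Xbp1, by 0.37. Of 20 cytosolic heat shock genes 10 rose and 3 fell, with Hsph1 at a log2 fold change of 0.69 ± 0.09 and Hsp90ab1 at 0.42 ± 0.06. Of 14 chaperonin and prefoldin genes, which fold actin and tubulin, 8 rose and 2 fell, and 6 of these 10 were called in no single pair. Cct5 rose by 0.27 and Pfdn4 by 0.32 on the log2 scale.

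Antioxidant genes rose in part. Of 35 tested NRF2 targets and antioxidants 15 rose and 2 fell, with a median log2 fold change of 0.18, while 15 were bounded and 6 of the rises were called in no single pair. Hmox1, the heme oxygenase, was at 7.16 to 14.3 CPM without light (median 10.7) and at 30.1 to 243 CPM with light (median 121). All exposed libraries were higher and the log2 fold change was 3.21 ± 0.24 (adjusted p = 6.69e-12). Mt2A, a metallothionein that binds zinc, was at 9.25 to 26.4 CPM without light and at 71.2 to 261 CPM with light, a log2 fold change of 3.36 ± 0.19. Sod2, the mitochondrial superoxide dismutase, went from 106 to 133 CPM up to 182 to 385 CPM, a log2 fold change of 1.253 ± 0.09. The single-pair estimates of Sod2 were 1.43, 1.14 and 1.16.

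Interferon response genes rose in 31 of 39 tested genes and none fell, with a median log2 fold change of 0.83. The calls in single pairs were 19 without injection, 24 with vehicle and 19 with nanoceria, and 6 genes were called in no single pair. Irf9, the DNA-binding part of the interferon-activated complex, was at 14.6 to 24.6 CPM without light and at 44.9 to 77.2 CPM with light (log2 fold change 1.60 ± 0.08, adjusted p = 6.12e-16). The promoter of Oas1b, an oligoadenylate synthetase gene, is shown because it holds the core of the interferon-stimulated response element, searched on both strands. Capitals mark the matches, which overlap (RefSeq, GRCr8, chr12:41395803-41396102, minus strand).
Oas1b: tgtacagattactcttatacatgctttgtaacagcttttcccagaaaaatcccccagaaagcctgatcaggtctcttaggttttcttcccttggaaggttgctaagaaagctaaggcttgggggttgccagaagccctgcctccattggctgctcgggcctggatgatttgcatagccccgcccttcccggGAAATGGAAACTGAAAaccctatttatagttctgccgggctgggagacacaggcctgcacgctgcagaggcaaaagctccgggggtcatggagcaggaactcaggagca
Oas1b was at 5.12 to 13 CPM without light (median 9.48) and at 24.4 to 44.9 CPM with light (median 33.8). Every exposed library was higher and the log2 fold change was 1.87 ± 0.12 (adjusted p = 1.27e-13). The motif was in 20 of 30 promoters of the list, in 4.15% of the promoters of all genes called higher, in 2.54% of those called lower and in 3.77% of all promoters.

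Immune cell markers did not move as 1 group. Of 17 tested genes of monocytes, neutrophils and macrophages 9 rose and none fell, with a median log2 fold change of 0.60. Their calls in single pairs were 13 without injection, 6 with vehicle and 2 with nanoceria, and without the uninjected groups 3 rose. Their summed level was 293 to 662 CPM without light and 367 to 827 CPM with light. Cd163, a scavenger receptor of macrophages, was at 3.88 to 15.6 CPM without light and at 15.3 to 58.0 CPM with light, with 16 of 17 exposed libraries above the highest unexposed one. Its log2 fold change was 2.06 ± 0.21 (adjusted p = 2.04e-09). Msr1, another scavenger receptor, rose by 1.47. Of 14 tested genes of resting microglia, the resident macrophages, 6 fell and 3 rose, and 3 fell without the uninjected groups. P2ry12, their purine receptor, was at 2.34 to 6.55 CPM without light and at 1.05 to 4.56 CPM with light, a log2 fold change of -0.93 ± 0.15. Trem2, a phagocytic receptor, fell by 0.98. Of 12 T and B cell genes 2 rose and 1 fell. Cd8a, a co-receptor of cytotoxic T cells, rose by 1.09 ± 0.27 on the log2 scale and was not called without the uninjected groups (adjusted p = 0.0693). Outside these lists, Tmem116, a transmembrane protein of little known function, fell by 2.59 ± 0.18.

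Complement, matrix and death genes rose in part. Of 24 tested complement and coagulation genes 13 rose and 1 fell, among them Plat, tissue plasminogen activator, by 0.96 ± 0.10 and Serping1, an inhibitor of complement C1, by 0.78 on the log2 scale. C3, the central complement component, was at 14.2 to 318 CPM without light (median 38.9) and at 27.7 to 178 CPM with light (median 61.6). No exposed library was above the highest unexposed one, and the log2 fold change of 0.47 ± 0.33 was not called (adjusted p = 0.293). The single-pair estimates of C3 were 1.41, 0.66 and -0.90, and the additive estimate was -0.10 without the uninjected groups and 1.056 without the nanoceria groups, where it was called (adjusted p = 0.0144). Unexposed nanoceria libraries had a C3 median of 107 CPM, against 22.5 CPM in control. Of 30 matrix remodelling genes 9 rose and 1 fell, among them Adamts4, an aggrecan-cleaving protease, by 2.23 ± 0.14, and Spp1, which encodes osteopontin, by 2.12 on the log2 scale. Of 30 apoptosis and p53 target genes 16 rose and 2 fell, and 5 of the rises were called in no single pair. Gadd45g, a stress-induced growth inhibitor, rose by 2.21 on the log2 scale. Of 29 cell cycle genes 5 rose and 4 fell, no more than the shares of 20.2% and 17.1% over all genes tested. The rises were 3 without the vehicle or the nanoceria groups, and the falls were 2 without the uninjected groups.

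Ribosome biogenesis genes, whose products build ribosomes in the nucleolus, rose by small amounts. Of 40 tested genes of ribosome biogenesis 37 rose and none fell, with a median log2 fold change of 0.37, and 3 of the rises were called in no single pair. That median was 0.39, 0.37 and 0.33 in the 3 single pairs. The count was 34 to 38 over all alternatives, 38 with library size alone and 37 with the size factors of DESeq2. Rrp12, a ribosome assembly factor, was at 20.2 to 27.2 CPM without light and at 32 to 50.1 CPM with light, without overlap, at a log2 fold change of 0.76 ± 0.06. Ddx21, a nucleolar helicase, was at 89.3 to 124 CPM without light and at 131 to 188 CPM with light, a log2 fold change of 0.62 ± 0.05. Ncl, which encodes nucleolin, rose by 0.39 ± 0.04.

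Translation factors rose in 19 of 31 tested genes and fell in 2, with a median log2 fold change of 0.17, and 7 of the rises were called in no single pair. Eif2s2, a subunit of the initiation factor eIF2, rose by 0.51 ± 0.04 on the log2 scale. Eif3d, a cap-binding subunit of eIF3, ranked first by p-value among genes called higher in no single pair. That ranking was limited to genes with an assigned name and a mean log2 CPM of at least 4. It was at 75.0 to 91.0 CPM without light (median 84.6) and at 81.6 to 105 CPM with light (median 93.9). The ranges overlapped, with 12 of 17 exposed libraries above the highest unexposed one, and the rise was 12.4% (log2 fold change 0.17 ± 0.04, adjusted p = 0.000282). The single-pair estimates were 0.16, 0.17 and 0.18. Tsr1, a maturation factor of the small ribosomal subunit, was at 55.3 to 71.7 CPM without light and at 61.7 to 74.9 CPM with light, a rise of 12.3% with 6 of 17 exposed libraries above the highest unexposed one. Cct2, a chaperonin subunit, was at 154 to 208 CPM without light and at 185 to 222 CPM with light, a rise of 13.4% (log2 fold change 0.18 ± 0.04). Naa15, a subunit of an N-terminal acetyltransferase, rose by 14.6%.

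Other housekeeping machines moved less or not at all. Of 41 tested cytosolic ribosomal proteins 4 rose and none fell, and 35 were bounded. Rpl15, Rps24 and Rpl5 rose by 0.18, 0.18 and 0.17 on the log2 scale. The count was 21 with library size alone, 1 with DESeq2 size factors, 16 with limma-voom and 0 without the groups of any 1 injection state. Leaving out nanoceria plus light 2 gave 10 and leaving out control 6 gave 9, while 17 were called without the 3 libraries that stand apart. Leaving out any other single library gave 1 to 6. Of 37 proteasome genes 9 rose and 3 fell, and 35 were bounded. With library size alone 19 rose, and without the uninjected groups 5 rose. Of 39 spliceosome genes 7 rose and 5 fell, with 35 bounded, and 14 rose and 1 fell with library size alone. The falls were 2 or 3 in 7 other settings, among them each injection state left out, no filter, and control 5, nanoceria plus light 3 or vehicle plus light 3 left out, and 4 rose without the vehicle groups. Srsf6, a splicing regulator, was an exception with a log2 fold change of -0.53 ± 0.06. Nuclear transport genes held both the importin Ipo5, which rose by 0.90 ± 0.08, and the importin Kpna2, which fell by 0.66 ± 0.06.

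**Figure D4:**
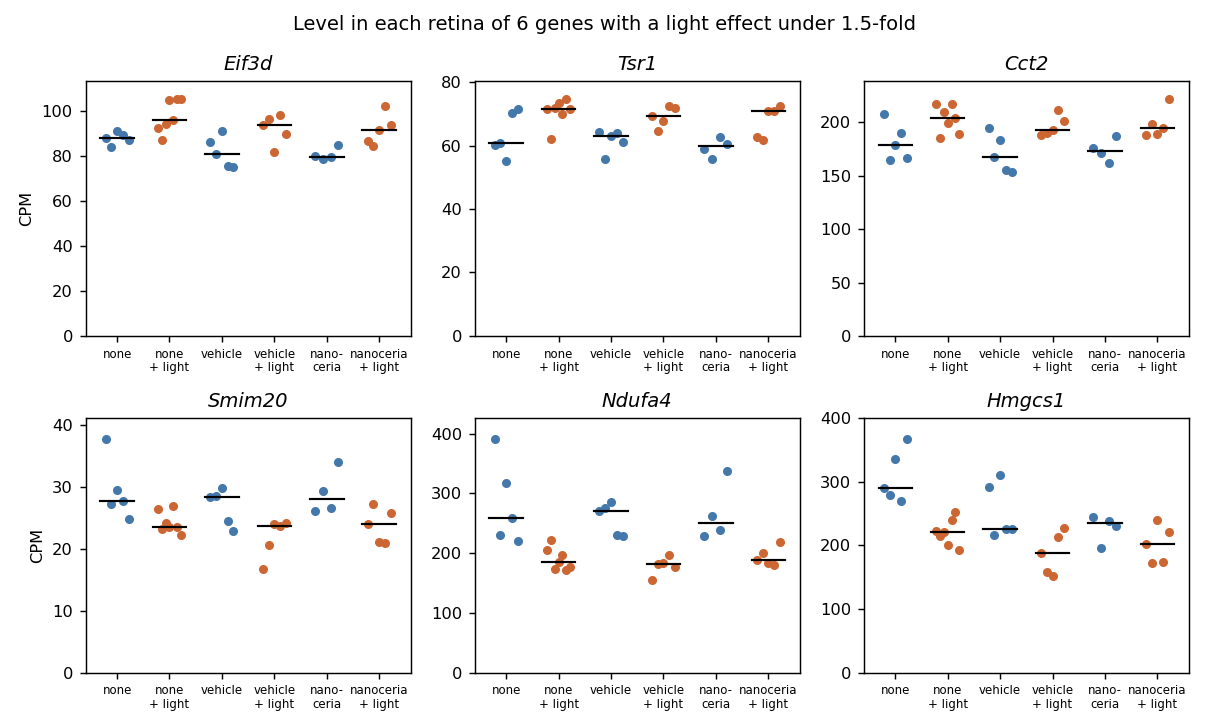
Level in CPM of 6 genes with a light effect under 1.5-fold in each of 31 libraries, without light (blue) and with light (orange), with group medians as black lines and axes from 0. Exposed medians of Eif3d, Tsr1 and Cct2 are higher and those of Smim20, Ndufa4 and Hmgcs1 lower in all 3 injection states, with overlapping points.

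Genes of the respiratory chain, which makes ATP in mitochondria, fell by small amounts. Of 47 tested subunits of the respiratory complexes I to V none rose and 30 fell, with a median log2 fold change of -0.15. Of these falls 12 were called in no single pair, and 35 of the 47 genes were bounded. With library size alone 18 fell and 2 rose. Ndufa4, a subunit of the respiratory chain, was at 219 to 391 CPM without light (median 261) and at 155 to 223 CPM with light (median 184). A total of 16 of 17 exposed libraries were below the lowest unexposed one, and the log2 fold change was -0.53 ± 0.07 (adjusted p = 3.39e-07). Smim20, an assembly factor of cytochrome oxidase, fell by 18.0% and was called in no single pair (adjusted p = 0.000375). It was at 22.9 to 37.8 CPM without light and at 16.7 to 27.2 CPM with light. Of 20 citric acid cycle genes 9 fell and none rose, with 4 falls and 2 rises under library size alone and 4 falls without the uninjected groups. Mdh1, the cytosolic malate dehydrogenase, fell by 0.34 and Got1, an aspartate aminotransferase, by 0.59 on the log2 scale. Neither is an enzyme of the cycle itself.

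Glycolysis and lactate genes fell in 18 of 30 tested genes and rose in 2, with a median log2 fold change of -0.26. Hk2, the hexokinase of photoreceptors, was at 403 to 720.2 CPM without light and at 83.9 to 265 CPM with light, without overlap. The log2 fold change was -1.74 ± 0.13 (adjusted p = 6.76e-12). Pfkfb2, a regulator of phosphofructokinase, fell by 1.09 and Slc16a1, a lactate transporter, by 0.91. Slc16a8, the lactate transporter of the pigment epithelium, was at 82.9 to 192 CPM without light and at 46.8 to 133 CPM with light. Its estimate on the log2 scale of -0.65 ± 0.14 was the largest among the 6 lower genes named for being called in no single pair. The visual cycle enzyme Rpe65, also of the pigment epithelium, was at 206 to 785 CPM without light and at 122 to 334 CPM with light (log2 fold change -0.88 ± 0.20, adjusted p = 0.00075). Its estimate was -0.48 without the uninjected groups, where it was not called (adjusted p = 0.107). In the list of 14 pigment epithelium markers 5 fell and 2 rose, with a median log2 fold change of -0.17. Over all alternatives 2 to 5 fell and 1 to 3 rose. The summed level of the list had a median of 5298 CPM without light and 4980 CPM with light.

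Sterol synthesis and uptake genes fell in 16 of 27 tested genes and rose in 1, with a median log2 fold change of -0.24. With library size alone 10 fell, and without the uninjected groups 5 fell. The single pairs gave 17 falls without injection, 8 with vehicle and 0 with nanoceria, with medians of -0.37, -0.26 and -0.04, but for none of the 27 genes was the difference between injection states called. Hmgcs1, which makes the precursor of mevalonate, was at 196 to 367 CPM without light (median 257) and at 152 to 252 CPM with light (median 214). It had a log2 fold change of -0.38 ± 0.07 (adjusted p = 8.81e-05), and single-pair estimates of -0.48, -0.44 and -0.18. The core of the sterol response element, TCACNCCAC, was in 0 of 19 promoters of the list and in 1.13% of all promoters. Among genes of cholesterol export and lipid droplets, Plin2, the droplet coat protein, rose by 2.05 ± 0.29, while the exporter Abcg1 fell by 0.51 ± 0.04.

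In the remaining lists rises and falls were mixed. Of 34 tested genes of the lysosome and V-ATPase 5 rose and 8 fell, with 30 bounded. With library size alone 1 fell, and without the groups of any 1 injection state 2 fell. Leaving out control 1 gave 3 falls, and leaving out control 4, nanoceria 5 or vehicle 3 gave 4. The rises were 2 without the uninjected groups and 3 without the vehicle groups. Among 27 autophagy genes 5 rose and 9 fell. The falls were 4 with library size alone and 5 without the uninjected groups. The rises were 2 or 3 in 16 settings, which include DESeq2, each injection state left out, and single libraries left out (control 6, light damage 1, nanoceria 1, 2 or 3, vehicle 4 or 7, nanoceria plus light 5 and vehicle plus light 2). Optn, the autophagy receptor optineurin, fell by 1.16 ± 0.06 on the log2 scale (adjusted p = 3.12e-15). Clock genes rose in 7 and fell in 10 of 25, against 4 and 6 without the vehicle groups. Bhlhe40 rose by 0.49 ± 0.06 while its paralog Bhlhe41, also a transcriptional repressor of the clock, fell by 0.67 ± 0.10. The exposure lasted 24 h, and the hour of dissection is not given. Histone-modifying enzymes rose in 9 and fell in 10 of 38, with 4 falls under library size alone and 6 without the vehicle groups. Of 19 vascular genes 5 rose and 6 fell. The falls were 3 with library size alone or without the nanoceria groups, and the rises were 2 without the uninjected or the vehicle groups. They included Flt1, a decoy receptor of VEGF, which rose by 0.86 ± 0.08, and Kdr, the signalling receptor of VEGF, which fell by 0.76 ± 0.09.

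For a large part of the transcriptome the light effect was bounded. The 5 genes with the narrowest intervals were Kbtbd2 (log2 fold change 0.03 ± 0.02), Ppfia1 (0.17 ± 0.02), Ebag9 (-0.01 ± 0.02), Nono (-0.07 ± 0.02) and Trappc10 (-0.003 ± 0.022). With library size alone Ebag9 and Trappc10 were both at 0.07 and not called, and Kbtbd2 was at 0.10 and called (adjusted p = 0.0196). Without the uninjected groups Kbtbd2 was at -0.0004. Ppfia1, a scaffold of synapses and adhesions, shows that a bounded gene can be called, since it rose by 12.4% with every exposed library above every unexposed one (adjusted p = 1.27e-07). Nono, an RNA-binding protein of paraspeckles, was called lower (adjusted p = 0.00703), and not with library size alone, where its estimate was -0.002, or without the uninjected groups (adjusted p = 0.143).

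The light response differed between injection states for 22 genes (0.122%), by a test of the interaction of light with injection state. Of these 11 were called in the additive model. In 14 of the 22 the estimate was highest without injection and lowest with nanoceria, in 3 the reverse and in 5 neither. Chi3l1, a secreted chitinase-like protein of reactive glia, had estimates of 2.91, 1.79 and 0.28 without injection, with vehicle and with nanoceria (adjusted p of the difference 0.00915). Its unexposed medians were 32.1 CPM in control, 69.1 CPM with vehicle and 179 CPM with nanoceria, while exposed medians were 203, 248 and 269 CPM. The injection states differed more in the unexposed than in the exposed medians, and without the uninjected groups the additive estimate was 1.0597 against 1.74 with them. Nlrp1a, an inflammasome sensor, had a light estimate of 2.47 without injection, -0.03 with vehicle and -0.49 with nanoceria (adjusted p of the difference 0.0196), and was not called in the additive model (adjusted p = 0.137). Its unexposed medians were 1.78, 2.56 and 6.41 CPM and its exposed medians 9.99, 3.29 and 4.4 CPM in the same order. Levels of Nlrp1a were spread widely within some injected groups. The vehicle libraries were at 2.14, 2.23, 2.56, 7.81 and 8.03 CPM. Vehicle plus light was at 2.64 to 8.33 CPM and nanoceria plus light at 1.89 to 8.71 CPM. Control was at 1.63 to 2.26 CPM, nanoceria at 6.16 to 8.65 CPM and light damage at 8.42 to 13.3 CPM. The source of this spread was not tested. Etv4, an ETS factor downstream of FGF, was lowest without injection, with estimates of -0.17, 0.96 and 0.66 (adjusted p of the difference 0.0108). Here the control median of 10.7 CPM was above those of 5.93 CPM with vehicle and 6.3 CPM with nanoceria. Cntnap5b, a neuronal adhesion protein, changed sign with injection, from 0.85 to -1.79 and -1.03, and its additive estimate of -0.62 ± 0.28 was not called (adjusted p = 0.0809). Gpr183, an oxysterol receptor of immune cells, had estimates of 0.97, 0.26 and -0.41, and Spice1, a centriole protein, of -0.39, 0.22 and -0.02. The number depended on the libraries used. It fell to 8 without control 2, to 9 without light damage 6, to 10 without light damage 4 or 7, and to 11 without control 5 or nanoceria 2. It rose to 39 without vehicle 1, to 53 without light damage 2 and to 63 without vehicle plus light 2. DESeq2 called 177 genes and limma-voom 132.

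**Figure D5:**
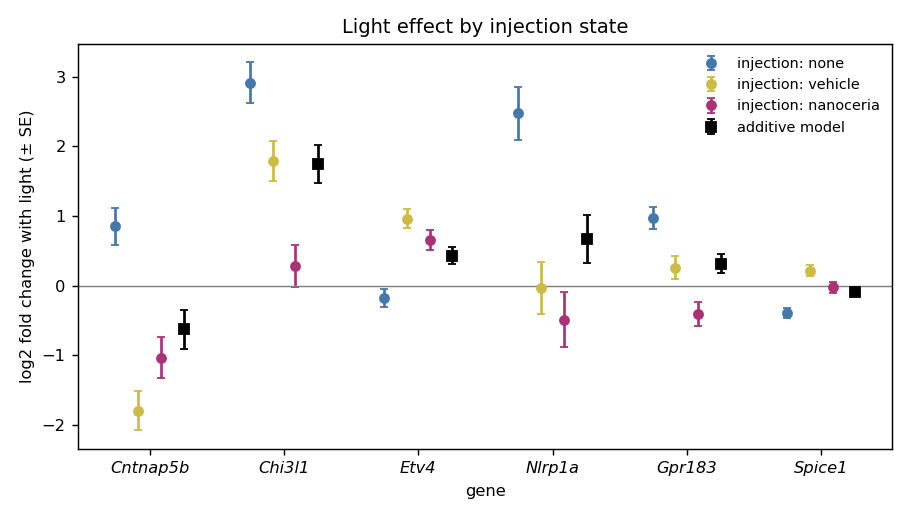
Log2 fold change with light of the 6 genes named for an unequal response, for each injection state (circles) and in the additive model (black squares), with bars of 1 SE. The estimates of the 3 states differ for each gene, though the vehicle and nanoceria states lie near each other for Etv4 and Spice1. The additive estimate lies between the lowest and the highest of the 3.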

How the data were processed

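Retinal poly(A) RNA with an RNA integrity number of at least 7 was sequenced as paired-end reads, per the labels. The authors deposited raw read counts per gene in 1 table, and of 42 labelled samples 31 had a column and 11 were not analysed here. Per the submitters' processing notes, Trimmomatic 0.39, STAR 2.7.9a, featureCounts of Subread 2.0.1, DESeq2 1.30.1, R 4.0 and the rn6 build were used. For the annotation, the use of strand and the treatment of reads with several matches, nothing is stated in the labels or notes read, and near-identical, overlapping or antisense genes may share reads.

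Of 32623 genes, 14529 were left out by filterByExpr of edgeR 4.0.16 (minimum count 10, minimum total 15, 6 groups), 9389 of them with 0 counts in every library, and 18094 were tested. Counts were scaled by TMM and fitted with a robust quasi-likelihood model with injection state and light as additive terms, in R 4.3.3. Adjusted p-values are Benjamini-Hochberg values over all genes tested, called under 0.05. A fit with 6 groups gave the 3 single pairs and the interaction of light with injection state. Log2 fold changes come with their standard error, and CPM use the TMM-scaled library sizes. The replicates are labelled biological, and p-values measure the spread between these samples. Replicate numbers were not used to pair samples, since the labels do not say what they share and not every pair correlated. Over 60 pairs of equal number the mean correlation of deviations was 0.0728, from -0.353 to 0.381, against a mean of -0.0128 for other pairs across groups. Libraries of equal number carry neighbouring sample indices in their names, and 12 of 31 samples matched their own number best. A fit with a replicate block was run as an alternative.

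The gene lists, motifs and named genes were chosen with earlier results of these data known. Named were the 6 highest and 6 lowest fold changes among called genes (mean log2 CPM of at least 1), the 6 higher and 6 lower genes called in no single pair with the smallest p (mean of at least 4), the 3 genes of each list with the smallest p, the 6 genes with the most unequal response, the 5 narrowest intervals, and 12 genes set by name. A selection of these is given, and some results are not reported here. Promoter sequences are from RefSeq (GRCr8), and 12113 tested genes matched one by symbol. On counts simulated for the additive comparison with 18094 genes, 58% of 50 genes changed 1.25-fold, 86% at 1.5-fold, 96% at 2-fold and 100% at 4-fold were called, with 14 false calls among 17894 unchanged genes. The simulated counts held no injection effect, and the changed genes were drawn from those with higher counts. In the data 37.3% of genes were called, a far larger share than was changed in the simulation, so these rates need not hold there. The alternatives were DESeq2 1.42.0, limma 3.58.1 (voom), other scalings, no filter, a replicate block, terms for lens and Y-linked transcripts, summed near-identical libraries, and each injection state and library left out. The set without 3 libraries that stand apart was chosen after seeing the data.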

Additional observations from a re-analysis of the deposited data

Results flagged for a closer look

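In 18 of 300 checks of a measure within 1 group, the highest or lowest library lay far from the rest by Dixon's criterion, which chance alone does in about 1 in 20 checks. Light damage 1 had 25158407 counts, against 106556304 to 149429413 in the other light damage libraries. The lens share of control 5 was 0.890%, against 0.0687% to 0.2997% in the other controls.

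Among photoreceptor genes, Esrrb was low in vehicle 1 (6.53 log2 CPM), Cngb1 was low in vehicle 1 (9.06 log2 CPM) and high in nanoceria 5 (9.74 log2 CPM), and Pde6c was low in vehicle 2 (3.57 log2 CPM). Each of these libraries was unexposed. Among stress genes, Gdf15 was low in control 1 (2.17 log2 CPM), Sod2 was high in control 6 (6.95 log2 CPM) and in vehicle 1 (7.06 log2 CPM), and Tars was high in nanoceria plus light 5 (7.63 log2 CPM).

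Among glial and immune genes, P2ry12 was high in vehicle 2 (2.53 log2 CPM) and Cd163 was low in light damage 2 (3.93 log2 CPM, against 5.17 to 5.83 log2 CPM in the other 6). Glul was low in vehicle plus light 1 (10.2 log2 CPM) and Chi3l1 was low in control 2 (4.16 log2 CPM). Of the other genes, Eif3d was high in nanoceria 5 (6.41 log2 CPM), Tsr1 was low in light damage 2 (5.96 log2 CPM), Etv4 was low in light damage 5 (3.05 log2 CPM) and Nlrp1a was high in nanoceria 3 (3.12 log2 CPM).

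The light response differed between injection states for 22 genes in edgeR's test of the interaction. Those named have adjusted p-values of 0.00414 for Cntnap5b, 0.00915 for Chi3l1, 0.0108 for Etv4, 0.0196 for Nlrp1a, 0.0208 for Gpr183 and 0.0262 for Spice1.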

How the results depend on the processing

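With 1 library left out in turn, the number of genes called higher ranged from 3468 to 3797 and lower from 2875 to 3332, those past 1.5-fold from 640 to 721, those bounded from 7841 to 8236 and those called in no single pair from 1888 to 2296. Without the uninjected, vehicle or nanoceria groups 2655, 2655 and 3086 genes were called higher and 2264, 2261 and 2699 lower. Those past 1.5-fold were 486, 543 and 702. With library size alone 5010 genes were called higher and 1860 lower, with DESeq2 3464 and 3630, and with limma-voom 1193 were called in no single pair. The count of unequal responses was 177 with DESeq2, 132 with limma-voom, 10 with the near-identical libraries summed, 13 without the 3 libraries that stand apart (chosen after seeing the data) and 8 to 63 with 1 library left out. The replicate block called 3546 genes higher, 3086 lower and 13 unequal. The labels do not say what an equal number shares. A total of 23 of 60 equal-numbered pairs correlated over 0.1 and 12 of 31 samples matched their own number best. Estimates whose sign changed included C3 (-0.0988), Gpr183 (-0.0744), Nlrp1a (-0.258) and Spice1 (0.0893) without the uninjected groups, and Cntnap5b (0.00291) without the vehicle groups. Those of Kbtbd2, Ebag9 and Trappc10, which lie near 0, also changed sign in some settings. The cause was not tested. Light damage 1, with 25158407 counts, is the least deeply sequenced library.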
